A study of Mus musculus with 8 samples.

Results

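The genes described here encode the proteins of the cytosolic ribosome. They were chosen by a rule on name and biotype, set with earlier results of these data known. It takes protein-coding genes whose symbol begins with Rpl or Rps and a number, with Rplp0, Rplp1, Rplp2 or with Rpsa. The Rps6k kinases are left out. The rule found 87 of 14353 genes, 52 named for the large subunit and 35 for the small one, and all 87 passed the filter of more than 1 CPM (a library's counts scaled to a common total) in at least 3 libraries. The rule takes in 10 genes that are not the standard copy of a ribosomal protein: 4 with a pseudogene-style symbol (Rps12-ps3, Rpl9-ps6, Rpl36a-ps1 and Rpl10-ps3), the paralogs Rpl22l1, Rpl36al, Rps27l and Rps27rt, and Rpl7l1 and Rps19bp1, which are not counted as ribosomal proteins by function.

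The study asked which mRNAs are being translated in glutamatergic neurons of the mouse ventral pallidum, a basal forebrain region of the reward system. All mice were homozygous for VGluT2-Cre and heterozygous for the RiboTag allele of Rpl22, in which Cre recombination adds an HA tag to this ribosomal protein, and none was treated. Tissue of 38 mice (15 male and 23 female) was combined into 4 pools of 7 to 11 mice, VP1.6 at 9 to 12 weeks of age and the other 3 (VP2.2, VP2.11 and VP2.6) at 10 to 16 weeks. From each pool came 1 TRAP library, RNA bound to HA-tagged ribosomes, and 1 INPUT library, labelled as all neurons and glia, so n = 4 in each fraction. Each library pools animals, so the spread between libraries is a spread between pools, and Cre marks every cell that has expressed VGluT2, not only those that do so in the adult.

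The cytosolic ribosome joins a small subunit, which reads the mRNA, to a large subunit, which forms the peptide bond. Ribosomal proteins are made in nearly every cell in matched amounts, and their mRNAs are short, abundant and in large part begin with a C followed by a run of pyrimidines, the 5′ terminal oligopyrimidine (TOP) tract, through which mTORC1 and LARP1 control how many ribosomes they carry. When TOP mRNAs are held back from translation they leave polysomes for lighter particles.

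The start of these genes is the sequence that carries the TOP tract, so windows of 30 bases, 15 on each side of the RefSeq start (GRCm38.p6), were read for the 63 members that have one. A start was counted as TOP-like when the first base was C and was followed on the sense strand by at least 4 bases that were C or T. This held in 14 of 63 members (22.2%) and in 3.01% of 27025 genes. Shown are 3 members with a TOP-like start that were lower in TRAP, 2 with such a start and a small difference, and the 3 marker genes Rpl22, Rpl5 and Rpl12 with Rpl4; capitals mark the pyrimidine run from the start base.
Rps27 (chr3:90213634-90213663, minus strand): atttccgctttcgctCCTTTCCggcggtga
Rps21 (chr2:180257364-180257393, plus strand): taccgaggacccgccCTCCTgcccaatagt
Rpl35 (chr2:39005117-39005146, minus strand): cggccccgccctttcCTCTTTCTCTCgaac
Rps6 (chr4:86857353-86857382, minus strand): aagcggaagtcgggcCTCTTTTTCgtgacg
Rps10 (chr17:27635230-27635259, minus strand): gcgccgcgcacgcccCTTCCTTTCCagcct
Rpl22 (chr4:152325711-152325740, plus strand): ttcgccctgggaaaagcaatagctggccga
Rpl5 (chr5:107900513-107900542, plus strand): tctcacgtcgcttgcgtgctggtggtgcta
Rpl12 (chr2:32961697-32961726, plus strand): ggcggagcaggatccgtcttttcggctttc
Rpl4 (chr9:64173372-64173401, plus strand): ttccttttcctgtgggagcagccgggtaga
The annotated start can differ from the start used in this tissue by several bases, so a window without the run says only that it is not at the annotated base. The median log2 fold change was -1.21 in the 14 members with the run and -0.996 in the 49 without it, and the ranges overlapped, from -2.45 to -0.20 and from -2.32 to 0.16.

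Before the levels are read, a property of the deposited values has to be stated. In 14351 of 14353 genes, and in all 87 members, a single level lay between the TRAP and the INPUT value of every pool. The other 2 genes missed it by at most 0.0143 on the log2 scale. When INPUT libraries were assigned to the TRAP libraries of other pools, in 23 ways, this held in 6860 to 11214 genes. After each fraction's mean was subtracted from every gene, both libraries of a pool correlated negatively over all genes (Pearson's r from -0.75 to -0.50), whereas a TRAP and an INPUT library of unlike pools had 0.05 to 0.44. The values are thus tied within each pool, as they would be if a weighted mean of the pool's TRAP and INPUT values had been made equal in all pools, a step that is not given in the sources used here. The difference TRAP minus INPUT within a pool is not affected by a shift that both libraries share. The fold changes and the calls with the pool as a block rest on it. Levels and summed levels of single libraries are given as description only. Which library of a pool moved cannot be told from these values. For the same reason, a gene whose TRAP values all lie below its INPUT values is simply a gene that is lower in all 4 pools: of 3503 such genes, 0 had overlapping fractions, so the separation is no further evidence.

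Ribosomal protein mRNAs were lower in TRAP than in INPUT. Of 87 members, 60 were lower and 0 higher at an adjusted p under 0.05 (limma with the pool as a block, Benjamini-Hochberg over 14249 genes), while 27 did not pass. Over all genes tested, 16.8% were lower and 15.4% higher. The median log2 fold change of the members was -1.12, against -0.05 for all genes tested. TRAP was below INPUT in all 4 pools for 60 members as well, 58 of them called, against 24.4% of all genes. At an unadjusted p under 0.05, 67 members were lower and 0 higher. In a fit without the pool as a block 65 members were lower, against 24.8% of all genes; because the values are tied within pools, that fit takes the spread as smaller than it is for a difference within pools, and the calls below are those with the block.

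The size of the fall differed between pools while its order over members was alike. The median difference of the members was -0.98 in VP1.6, -1.99 in VP2.2, -0.51 in VP2.6 and -0.86 in VP2.11, with a median of all genes from -0.04 to -0.01. VP2.2 gave the lowest difference of the 4 pools in 82 of 87 members, and VP2.6 the highest in 72. Mitochondrial ribosomal protein genes also had their lowest median in VP2.2 (-0.93) and their highest in VP2.6 (0.01). Across the 87 members, the differences of VP1.6, VP2.2 and VP2.6 had a Pearson's r of 0.87 to 0.92 with each other and of 0.63 to 0.66 with VP2.11, a description over genes that share libraries. Without VP2.2 the median of the members was -0.81 and 55 members were lower, against 14.3% of all genes tested.

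**Figure D1:**
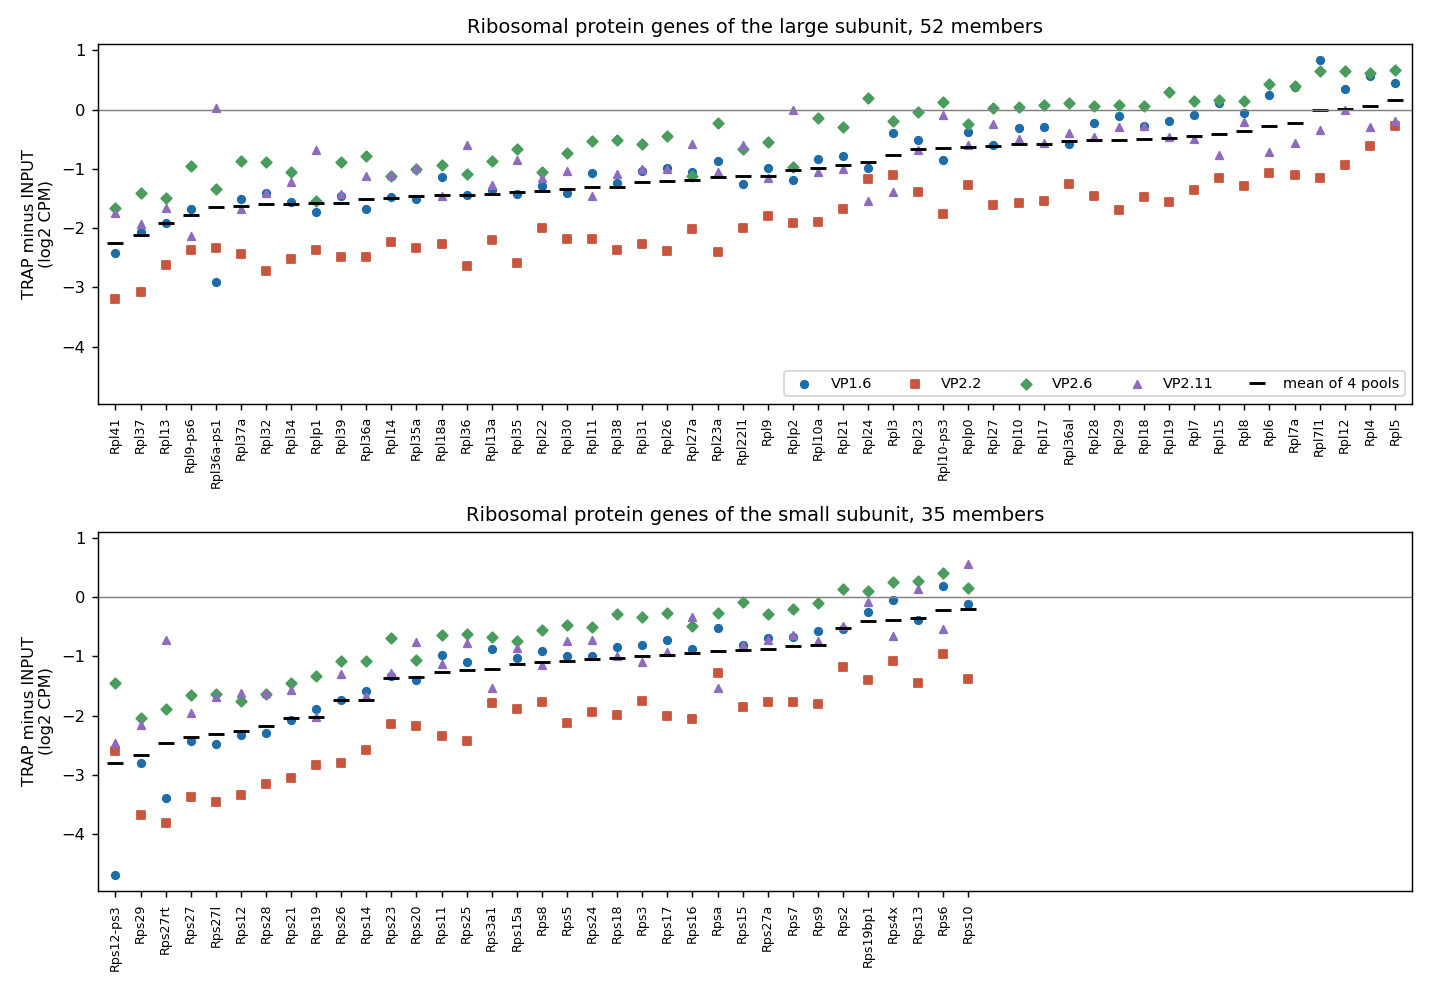
TRAP minus INPUT difference in log2 CPM of each of the 52 large subunit and 35 small subunit members, ordered by the mean of the 4 pools (black bars), with 1 point for each pool. The VP2.2 squares lie lowest for 82 of the 87 members, and the mean is at or above 0 for Rpl12, Rpl4 and Rpl5.

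Rpl22, the protein that carries the HA tag, binds at the outer face of the large subunit (ENSMUSG00000028936, GRCm38 chr4:152325742-152334071, plus strand). Its level in INPUT was 7.13, 7.73, 6.99 and 6.90 log2 CPM (VP1.6 first, then VP2.2, VP2.6, and last VP2.11), and in TRAP it was 5.84, 5.74, 5.93 and 5.75. Every pool was lower in TRAP, by 1.06 to 1.99 on the log2 scale. The log2 fold change was -1.37 ± 0.23 (SE, n = 4 pools, limma adjusted p = 0.000527). A two-sided exact sign-flip test within pools gave p = 0.125, the smallest value that 4 pools allow. The exact permutation test of 4 TRAP against 4 INPUT values, which had been planned, gave p = 0.0286, but it treats libraries as exchangeable between pools, which the tied values are not. Counts of Rpl22 do not separate the tagged allele from the untagged one. Its paralog Rpl22l1 was lower at -1.13 ± 0.25 (adjusted p = 0.00392), and 58.6% of its 75-base stretches recur in transcripts of other genes, against 1.42% for Rpl22.

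Rpl5 and Rpl12 had values near 0 that did not pass the test. Their sign was not stable: over the alternatives, Rpl5 ran down to -0.012 with a trend on level taken out, and Rpl12 to -0.20 without VP2.6, and the number of members at or above 0 ran from 0 to 16. Rpl5, which enters the large subunit together with 5S rRNA and Rpl11, had INPUT levels of 8.17, 8.56, 8.05 and 8.46 log2 CPM and TRAP levels of 8.62, 8.29, 8.71 and 8.27, in the same order of pools. It was higher in TRAP in VP1.6 and VP2.6 and lower in VP2.2 and VP2.11, at a log2 fold change of 0.16 ± 0.23 (adjusted p = 0.627). Of its 75-base stretches, 92.5% recur in annotated transcripts of other genes. The authors counted only reads that aligned uniquely, so reads from those stretches may be missing from the value of Rpl5, which was not tested. Rpl11, its partner, was lower in all 4 pools at -1.31 ± 0.26 (adjusted p = 0.00201). Rpl12, at the base of the stalk to which translation factors bind, had INPUT levels of 7.27, 8.05, 7.11 and 7.43 and TRAP levels of 7.61, 7.11, 7.75 and 7.43. Its differences were of both signs, at a log2 fold change of 0.01 ± 0.26 (adjusted p = 0.975).

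The third member at or above 0 was Rpl4, which lines the tunnel through which the nascent chain leaves, at 0.07 ± 0.28 (adjusted p = 0.877). It was higher in TRAP by 0.57 in VP1.6 and 0.62 in VP2.6 and lower by 0.61 in VP2.2 and 0.30 in VP2.11. Next in order were Rpl7l1 at -0.0022, Rps10 at -0.20 and Rpl7a at -0.22, none of which passed. In all, 26 members were above 0 in at least 1 pool. A p that misses the threshold does not show that these mRNAs were equal in both fractions.

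**Figure D2:**
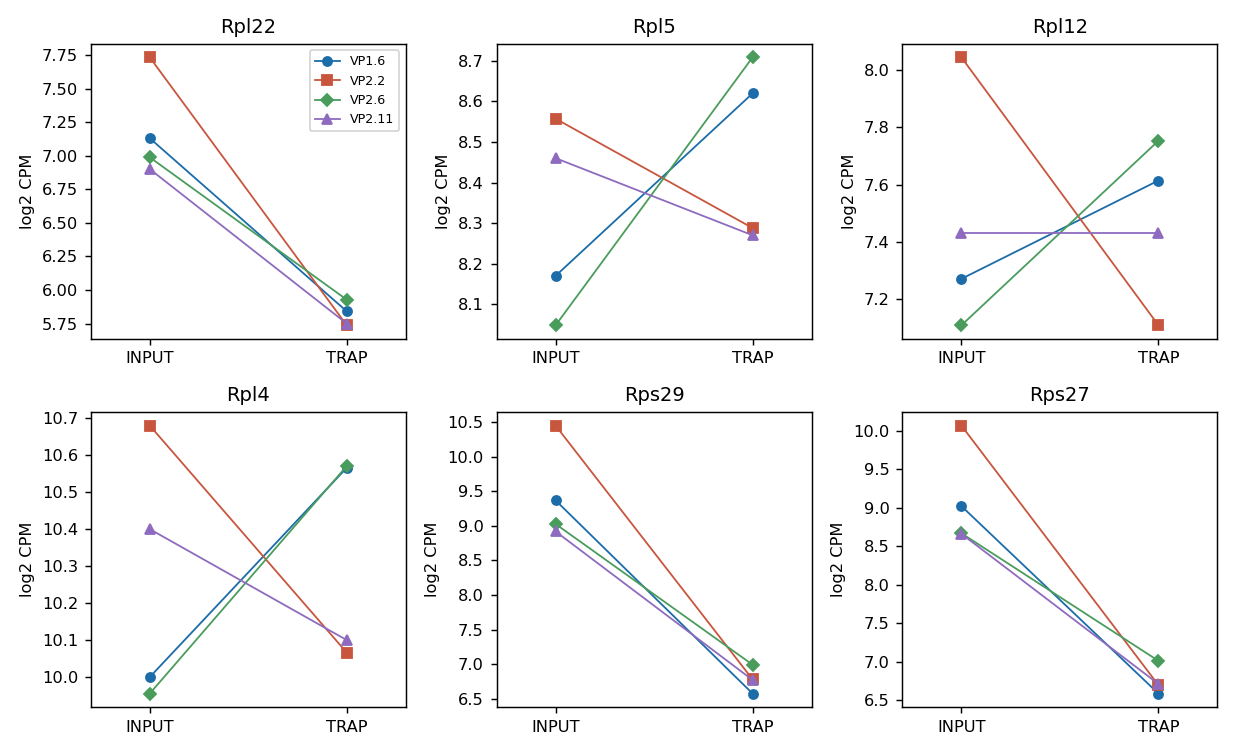
Level in log2 CPM of 6 members in the INPUT and TRAP library of each pool, a line joining the libraries of 1 pool; each panel has its own vertical scale, which does not start at 0. Lines fall in all 4 pools for Rpl22, Rps29 and Rps27 and run both ways for Rpl5 and Rpl4, crossing near 1 level.

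The 6 lowest members were all named for the small subunit. Rps29, a zinc-binding protein of the head, had INPUT levels of 9.37, 10.45, 9.03 and 8.92 log2 CPM and TRAP levels of 6.57, 6.78, 6.99 and 6.77. That is a log2 fold change of -2.66 ± 0.27 (adjusted p = 1.13e-05), or a level 6.34-fold higher in INPUT. Rps27 was at -2.35 ± 0.27 (adjusted p = 3.33e-05), and its paralog Rps27l at -2.32 ± 0.29 (adjusted p = 8.56e-05). Rps12 followed at -2.26 ± 0.27 (adjusted p = 4.82e-05). Rps12-ps3 was lowest of all at -2.80 ± 0.56, but at a mean of 1.01 CPM in TRAP and with 100% of its stretches found in other transcripts, and Rps27rt at -2.45 ± 0.39 shares 90.3%. Around the threshold, Rpl3 (-0.77, adjusted p = 0.0494) was just inside and Rpl23 (-0.66, adjusted p = 0.0536) just outside.

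The counts by position stand beside 16.8% lower over all genes tested. By position in the ribosome, 13 of 14 listed proteins of the small subunit head were lower, with a median of -1.06. They include Rps3 (-0.996), Rps19 (-2.02) and Rps25 (-1.23), and the exception was Rps10, which had a difference of 0.56 in VP2.11. Of 10 proteins at the exit tunnel and its rim, 7 were lower, with a median of -1.21, and Rpl4, Rpl17 and Rpl19 did not pass. Of 4 proteins of the stalk and the GTPase-associated centre, Rplp1 (-1.58 ± 0.26, adjusted p = 0.000586) and Rplp2 (-1.02 ± 0.27, adjusted p = 0.0110) were lower. Rplp0, to which both bind, was at -0.63 ± 0.24 (adjusted p = 0.0554). Fau and Rack1 encode ribosomal proteins whose symbols lie outside the name rule, and neither passed, at -0.51 ± 0.28 (adjusted p = 0.174) and -0.09 ± 0.22 (adjusted p = 0.786).

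Of the large subunit members 31 of 52 were lower, and of the small subunit members 29 of 35, against 16.8% of all genes tested. The mean log2 fold change was -1.01 for the large and -1.30 for the small subunit, a difference of 0.29 ± 0.09 (SD over 4 pools) that was above 0 in each pool. The medians of the log2 fold changes gave the other order, -1.13 and -1.09, although within pools the large minus small difference of medians was -0.01 in VP1.6 and 0.06, 0.08 and 0.125 in VP2.2, VP2.6 and VP2.11. Without the 10 non-standard members it was 0.20 ± 0.05. It is a score over chosen genes and was given no test.

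The fall was larger for shorter coding sequences, among members and other genes alike. Spearman's rho between coding length and log2 fold change was 0.64 across 87 members and 0.48 across 12644 other protein-coding genes, both descriptions over genes of the same libraries. In members the rho was 0.63 to 0.70 in VP1.6, VP2.2 and VP2.6 and 0.27 in VP2.11. In the other protein-coding genes it was 0.59 in VP2.2 and 0.30 to 0.37 in VP1.6, VP2.6 and VP2.11. The 10 members of up to 300 bases had a median of -2.15, against -1.19 for 238 other genes of that length, of which 71.0% were lower. From 300 to 500 bases the medians were -1.20 for 42 members and -0.74 for 789 others, and from 500 to 700 bases -1.03 for 20 members and -0.49 for 1129 others. From 700 to 1000 bases they were -0.38 for 13 members and -0.24 for 1679 others. In these ranges 10, 33, 13 and 3 members were called lower, against 71.0%, 45.6%, 30.4% and 21.6% of the others. With a trend on coding length taken out of each library, 36 members were lower and 1, Rpl12, was higher, and the median was -0.51. Of all 12731 genes in that fit, 13.0% were lower and 13.6% higher. Rpl22 stayed lower there, at -0.61 (adjusted p = 0.0272), whereas its paralog Rpl22l1 no longer passed, at -0.34 (adjusted p = 0.207). The part of length in the members' fall beyond this was not tested.

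**Figure D3:**
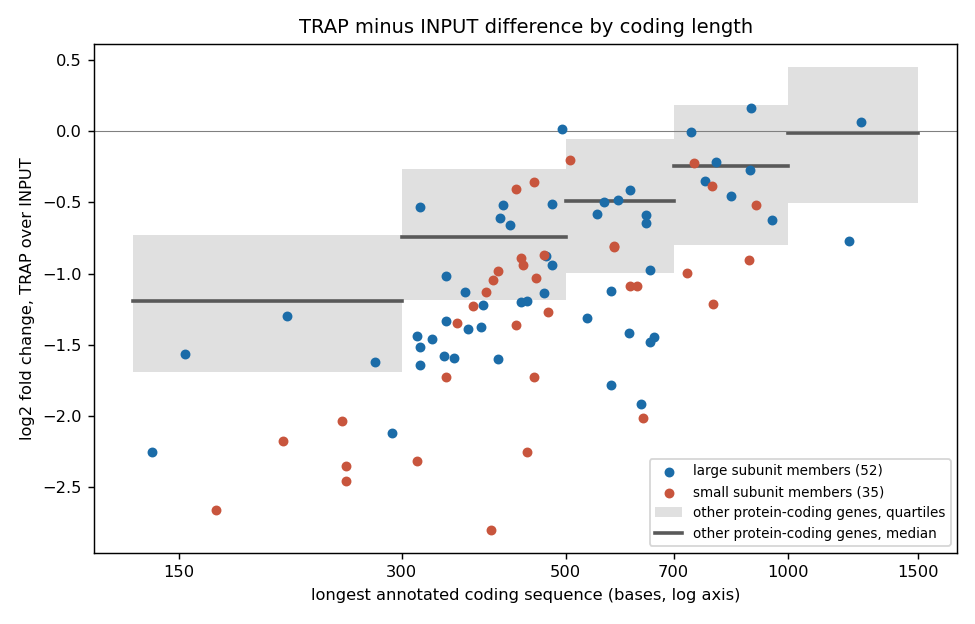
Log2 fold change of TRAP over INPUT against the longest annotated coding sequence in bases (log axis) for 52 large and 35 small subunit members, with the median (line) and quartiles (band) of other protein-coding genes in each length range. Members lie mostly below the line, and both fall towards short coding sequences, with medians of -2.15 and -1.19 up to 300 bases.

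Genes that supply the ribosome differed by group. The shares over all genes tested were 16.8% lower and 15.4% higher. Of 63 ribosome biogenesis factors tested, 28 were higher and 3 lower, with a median of 0.63, and the median was above 0 in all 4 pools (0.29 to 0.74). Examples are Npm1 (0.91 ± 0.24, adjusted p = 0.0109) and Ncl (1.18 ± 0.25, adjusted p = 0.00265), nucleolar proteins of ribosome assembly, while Nop10, a short snoRNP protein, was lower at -0.97 ± 0.29 (adjusted p = 0.0187). Of 19 translation factors whose mRNAs also carry TOP tracts, 2 were lower (10.5%) and 4 higher, with a median of -0.02. Eef2 was at 0.31 ± 0.24 (adjusted p = 0.348), Eef1a1 at -0.39 ± 0.31 (adjusted p = 0.356) and Eef1g at -1.03 ± 0.26 (adjusted p = 0.00843). Of 18 regulators of TOP mRNAs and mTORC1, 2 were lower (11.1%) and 4 higher. The counts of the translation factors and of these regulators were near the shares over all genes. Of 16 genes of RNA polymerase I 5 were lower (31.25%) and 2 higher, with a median of -0.22. In VP2.2 the medians were -0.74 for the translation factors and -0.56 for RNA polymerase I. The difference between these groups and the members was not tested. The median coding length was 1557 bases for the biogenesis factors and 1335 for the translation factors, against 453 for the members.

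Ribosomal protein pseudogenes, whose RNA is not translated as a rule, had a median of -1.45, with 71 of 115 lower (61.7%) and 0 higher. Among all genes tested 16.8% were lower and 15.4% higher. The median of the pseudogenes ran from -2.55 in VP2.2 to -0.43 in VP2.11, where 38 of 115 were higher in TRAP. Their levels were low, with a mean of 1.09 to 2.31 log2 CPM in the TRAP libraries. Their sequences resemble those of the members, so reads from stretches that match may be missing from their counts. Mitochondrial ribosomal protein genes had a median of -0.30, with 16 of 75 lower (21.3%) and 4 higher. Their share lower was near that of all genes tested. Members with at least 50% of stretches in other transcripts had a median of -1.11 (38 members), and those below that share -1.12 (49 members).

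**Figure D4:**
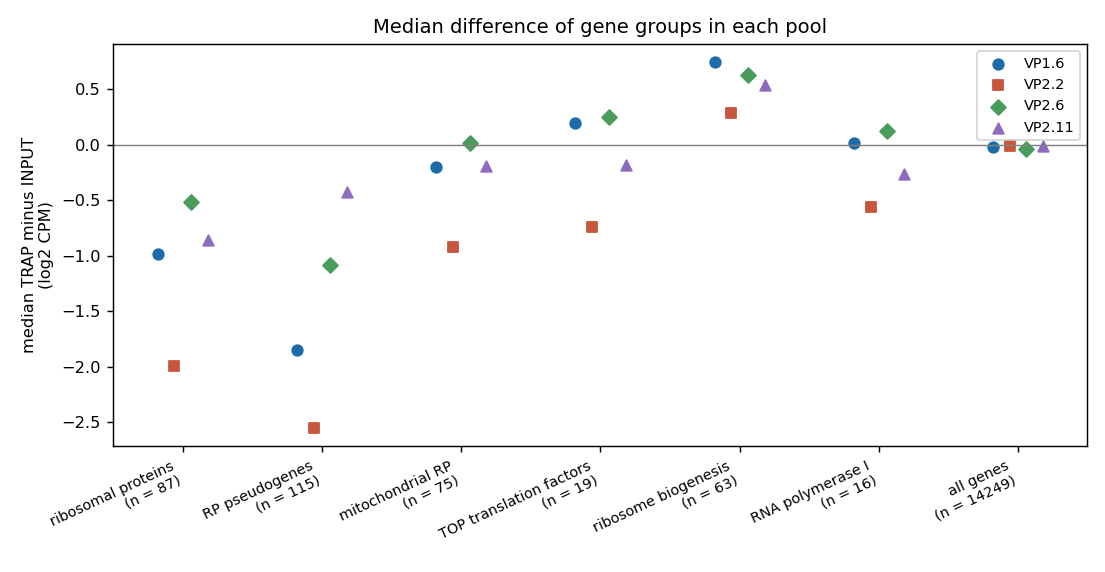
Median TRAP minus INPUT difference in log2 CPM of 7 gene groups in each of the 4 pools, with the number of genes tested under each name (RP, ribosomal protein). Ribosomal proteins run from -1.99 to -0.51 and ribosome biogenesis factors from 0.29 to 0.74, while all genes lie within 0.04 of 0.

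The 5 genes outside the members whose levels followed the members' mean most closely over the 8 libraries were Mrps21, Mrpl42, Sf3b6, Atox1 and Ndufa13, with a Pearson's r of 0.998 to 0.999. Their coding sequences are 204 to 432 bases long. The values of a pool are tied, so these correlations rest on the 4 differences and on the 2 fractions.

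Markers checked the fractions. All 3 glutamate neuron markers were higher in TRAP, Slc17a6, which encodes VGluT2, at 2.55 ± 0.24 (adjusted p = 7.3e-06). Of 8 oligodendrocyte markers 7 were lower, with a summed level of 1274 to 2177 CPM in TRAP and 4676 to 4906 CPM in INPUT. Of 8 astrocyte markers 5 were lower (1446 to 1898 against 1974 to 2392 CPM), and of 8 microglia markers 5 were lower (27.5 to 43.0 against 91.3 to 144 CPM). The sums of these 3 glial lists were lower in TRAP in all 4 pools, and because values are tied within pools the ranges are description only. The astrocyte sums are mostly Aldoc, at -0.09 with a mean of 1288 CPM in TRAP and 1378 CPM in INPUT. The astrocyte list ran from -3.00 (S100b) to 0.21 (Slc1a2). Of 6 endothelial and mural markers tested, 0 were lower and 2 higher, Flt1 at 2.37 (adjusted p = 0.00466) and Slco1a4 at 1.397 (adjusted p = 0.0429), and the list's median ran from -0.44 to 2.45 over the pools. None of these lists summed to 0 in TRAP. INPUT holds glia and other neurons as well, so fewer cells of a type and less RNA per cell cannot be told apart, and the part of cell makeup in the members' difference was not tested. VP2.2, with the largest fall of the members, was also the pool in which Gad1 and Gad2, markers of GABA neurons, were higher in TRAP, by 1.66 and 1.29, while both were lower in each other pool. The third gene of that list, Slc32a1, which encodes the vesicular GABA transporter, was lower in all 4 pools, by 0.60 in VP2.2, and was the only one of the list called (-1.26 ± 0.30, adjusted p = 0.00548).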

How the data were processed

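TRAP and INPUT RNA of 4 pools was sequenced, and the authors aligned reads with STAR (2.5.1a, per the submitters' processing notes), counted uniquely aligned reads per gene, scaled counts by TMM and used limma voom with quality weights. The deposited table holds log2 CPM of 8 libraries; its columns of the authors' own comparison (log2 fold changes, intervals, p-values and 2 columns of score values made by the authors) were not used. The methods state that ribosomal genes were excluded, yet the table holds the members. They also count more samples and mice than the labels and give a lower highest age. Besides an input fraction they name an unbound fraction as sent for sequencing, where the labels say Input. The labels were followed here. Of 14398 entries, 45 repeats with identical values were left out. The 14249 genes above 1 CPM in 3 or more libraries were fitted with limma 3.58.1 (lmFit, eBayes with a trend) and equal weights. The pool was a block, because a pool's TRAP and INPUT share a homogenate. Data simulated to test the fit gave both libraries of a pool a common shift. They were not tied as the deposited values are, so they cannot show how the fit treats that property. Same-pool libraries deviated in opposite directions (r from -0.75 to -0.50), and the fit without the replicate block called 65 members. A coding length is the longest in GENCODE vM21 (GRCm38). Library totals were not used here: repeated differences gave an INPUT to TRAP ratio of library sizes of 3.02 in VP2.2 and 1.99 in VP2.6, and values rounded in the table gave none in VP1.6 and VP2.11. Depth otherwise is unknown, and no counting interval is given. Named genes were Rpl22, Rpl5 and Rpl12, the 6 lowest and 6 highest members, paralogs, the most abundant examples of each list, and the 5 genes most like the members' mean. Members and lists were chosen with earlier results of these data known. One listed gene outside the name rule is not reported here.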

Additional observations from a re-analysis of the deposited data

How the results depend on the processing

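Of the alternatives, none gave a median of the members above 0, and Rpl22 remained lower in each. The number of members lower was 65 with no replicate block, 58 with array weights, 42 without a trend in eBayes, 49 once the exon length trend was removed and 70 after quantile normalization. In the same order, the share lower over all genes tested was 24.8%, 22.4%, 12.8%, 19.8% and 15.7%. The number of members lower moved most when the coding length trend was removed, a choice made after the data were seen. It was then 36 lower and 1 higher, against 13.0% and 13.6% of all genes in that fit. Among members with under 50% of stretches shared, also added later, 34 were lower, with fewer members counted. Leaving out 1 pool gave 54 to 60 members lower, against 11.7% to 15.7% of all genes. Members at or above 0, 3 in the report, numbered 7 with array weights, 1 after quantile normalization, 8 with the trend on exon length, 0 with a trend on level and 16 with the trend on coding length taken out, and 0 to 8 with 1 pool left out. The difference of means, large minus small subunit, was 0.20 without the non-standard members. Signs near 0 turned: Rpl12 to -0.11 (quantile normalization), -0.0064 (exon length), -0.15 (level) and -0.20 to 0.33 (1 pool left out), and it passed at 0.61 with coding length taken out; Rpl4 to -0.27 (quantile normalization), -0.20 (level) and -0.12 to 0.29 without 1 pool; Rpl5 to -0.012 (level) and -0.0032 to 0.31 without 1 pool; Rpl7a to 0.12 (array weights), 0.073 (exon length), 0.056 (coding length) and -0.43 to 0.076 without 1 pool; Rpl7l1 to 0.40 (array weights), 0.031 (median centring), 0.32 (coding length) and -0.28 to 0.38 without 1 pool; Rps10 to 0.38 (coding length) and -0.45 to 0.20 without 1 pool; Rps19bp1 to 0.10 (exon length) and 0.28 (coding length); Rpl36al to 0.35 (coding length). The cause was not tested. With 4 pools and unknown depth, differences of the size seen for the members near 0 were not resolved.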
